A study of Rattus norvegicus with 32 samples.

Results

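Collagens are the structural proteins of the extracellular matrix, and the genes described here encode chains of its main kinds together with an enzyme that ties collagen fibres. The set was chosen by name: Col1a1, Col1a2, Col3a1, Col5a1 and Col5a2 encode fibrillar chains, Col4a1 and Col4a2 basement membrane chains, Col6a1 and Col6a3 type VI chains, and Lox the cross-linking enzyme lysyl oxidase. Of these 10 symbols, 8 stood as gene names among the 32883 Ensembl rat genes of the deposited table and are the members counted below. Rows for Col1a2 and Col6a3 carried other names and were found by the table's gene descriptions, so their values are given beside the 8 members and are not in the counts. All 8 members, and both of these rows, passed the filter on low values.

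Chains wind around each other into a helix to make a collagen molecule. Type I molecules usually hold a pair of alpha 1 chains and an alpha 2 chain, type III molecules hold alpha 1 chains alone, and type V molecules are found inside type I fibrils and limit their width. Type IV collagen forms the sheet-like network of basement membranes, type VI collagen forms beaded filaments at the cell border, and lysyl oxidase oxidises lysines so that fibrils become cross-linked. In liver, stellate cells and portal fibroblasts are the best known makers of fibrillar collagen, and normal sinusoids lack a continuous basement membrane.

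Polyadenylated RNA was sequenced from livers of male rats of the inbred Lewis strain, in a study of grafts with macrosteatosis, in which hepatocytes store fat in large droplets. Of the deposited libraries, 11 post-transplant, 8 long-term survivor and 11 pre-transplant libraries could be tied to a group. The labels give no treatment arm, fat content, sampling time, age or batch for any group, so a group is known here only by its strain, sex and transplant status. Nothing in the labels ties each library to its own animal, and all p-values rest on the scatter between samples, part of which may be technical.

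Reads in Ensembl genes numbered 15802817 to 18464388 per post-transplant library, 17401155 to 18482059 per long-term survivor library and 15372950 to 19311664 per pre-transplant library. The hepatocyte markers (12 genes, among them the albumin gene Alb) summed to 25000 to 85300 FPKM in post-transplant, 58900 to 97000 in long-term survivor and 51800 to 110000 in pre-transplant libraries, so the liver label stood in every library. Values of the 1218 unannotated rows were whole reads for 3.15% to 5.03% of entries in the long-term survivor columns and for all entries in the other columns, so the long-term survivor columns were not made in quite the same way as the others. That difference and the group cannot be told apart. Among long-term survivors, replicate 3 was close to 7 and replicate 4 to 8, much more so (chi-square of reads per degree of freedom 3.03 and 3.33) than for the other 136 pairs within groups (22.62 to 328.79), and the labels do not say whether these are repeats. In bulk RNA, fewer cells of a type and less RNA per cell cannot be told apart.

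The type IV genes stand head to head, and their start regions are shown because both chains moved together in these libraries. In RefSeq's GRCr8 build the starts of Col4a2 (minus strand) and Col4a1 (plus strand) lie 77 bases apart on chromosome 16. Windows from 250 bases before to 50 bases after each start share 176 bases. In the coordinates of the counted gene models 83600 bases lie between the 2 genes, so the starts of those models lie far apart. The window of Col4a1, chr16:84885347-84885646 (+), is printed 5′ to 3′ with the bases shared with the Col4a2 window in capitals.

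Col4a1: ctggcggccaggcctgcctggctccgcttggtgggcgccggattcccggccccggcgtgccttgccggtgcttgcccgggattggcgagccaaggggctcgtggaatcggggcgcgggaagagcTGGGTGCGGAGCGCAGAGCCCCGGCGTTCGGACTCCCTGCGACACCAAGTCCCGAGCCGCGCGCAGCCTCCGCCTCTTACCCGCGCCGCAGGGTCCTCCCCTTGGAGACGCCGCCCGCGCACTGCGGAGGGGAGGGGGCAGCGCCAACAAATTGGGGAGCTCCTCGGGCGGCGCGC

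The window of Col1a2, chr4:33518307-33518606 (+) in the same build, is printed as the one type I window at hand, with a CCAAT box read on the opposite strand (ATTGG) and a TATAAA in capitals.

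Col1a2: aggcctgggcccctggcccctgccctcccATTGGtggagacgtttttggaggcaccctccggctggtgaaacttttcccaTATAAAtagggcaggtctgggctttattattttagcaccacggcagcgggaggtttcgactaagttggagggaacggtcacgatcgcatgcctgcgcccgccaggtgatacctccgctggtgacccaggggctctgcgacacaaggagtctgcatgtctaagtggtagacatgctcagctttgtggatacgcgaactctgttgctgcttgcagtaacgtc

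A CCAAT box (CCAAT or, on the opposite strand, ATTGG), a GC box (GGGCGG or CCGCCC) and TATAAA (or TTTATA) were searched for in the windows of the 7 genes of the set that had one, which leaves out Col1a1, Col3a1 and Lox. No matches overlapped in these windows, and of all 33469 rat windows 37.5% held CCAAT, 33.1% the GC box and 14.2% TATAAA on either strand. The stretch shared by Col4a1 and Col4a2 held 1 CCAAT box and 2 GC boxes, and the full windows of Col4a1 and Col4a2 were 75.0% and 73.7% G or C. Col1a2 had its CCAAT box 221 bases and its TATAAA 170 bases before the RefSeq start, in a window that was 57.0% G or C. The letters of Col1a2 from that start on open with ATG, the letters of a start codon. Its RefSeq start may therefore be that of the coding sequence, and distances to the start of transcription are not known here. The Col5a1 window held 1 GC box, and none of these letters was in the windows of Col5a2, Col6a1 and Col6a3. A match describes the letters alone.

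Collagen transcripts were higher after transplantation in fibrillar, basement membrane and type VI chains alike, with the largest log2 fold change of the members in Col1a1, while Lox did not pass the test. On the log2(FPKM + 1) scale, 7 of the 8 members rose in post-transplant against pre-transplant livers (limma, Benjamini-Hochberg adjusted p under 0.05), all but Lox, where 23.4% of the 11924 genes tested rose, 26.6% fell and 50.0% passed in either direction. For 5 of the 8 members every post-transplant library lay above every pre-transplant one, which held for 2.98% of the genes tested, with 0.964% wholly below. FPKM, the number of fragments scaled to gene length and library size, is the scale of every level below. Log2 fold changes are limma's on log2(FPKM + 1), given with SE, and understate changes of low genes.

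**Figure D1:**
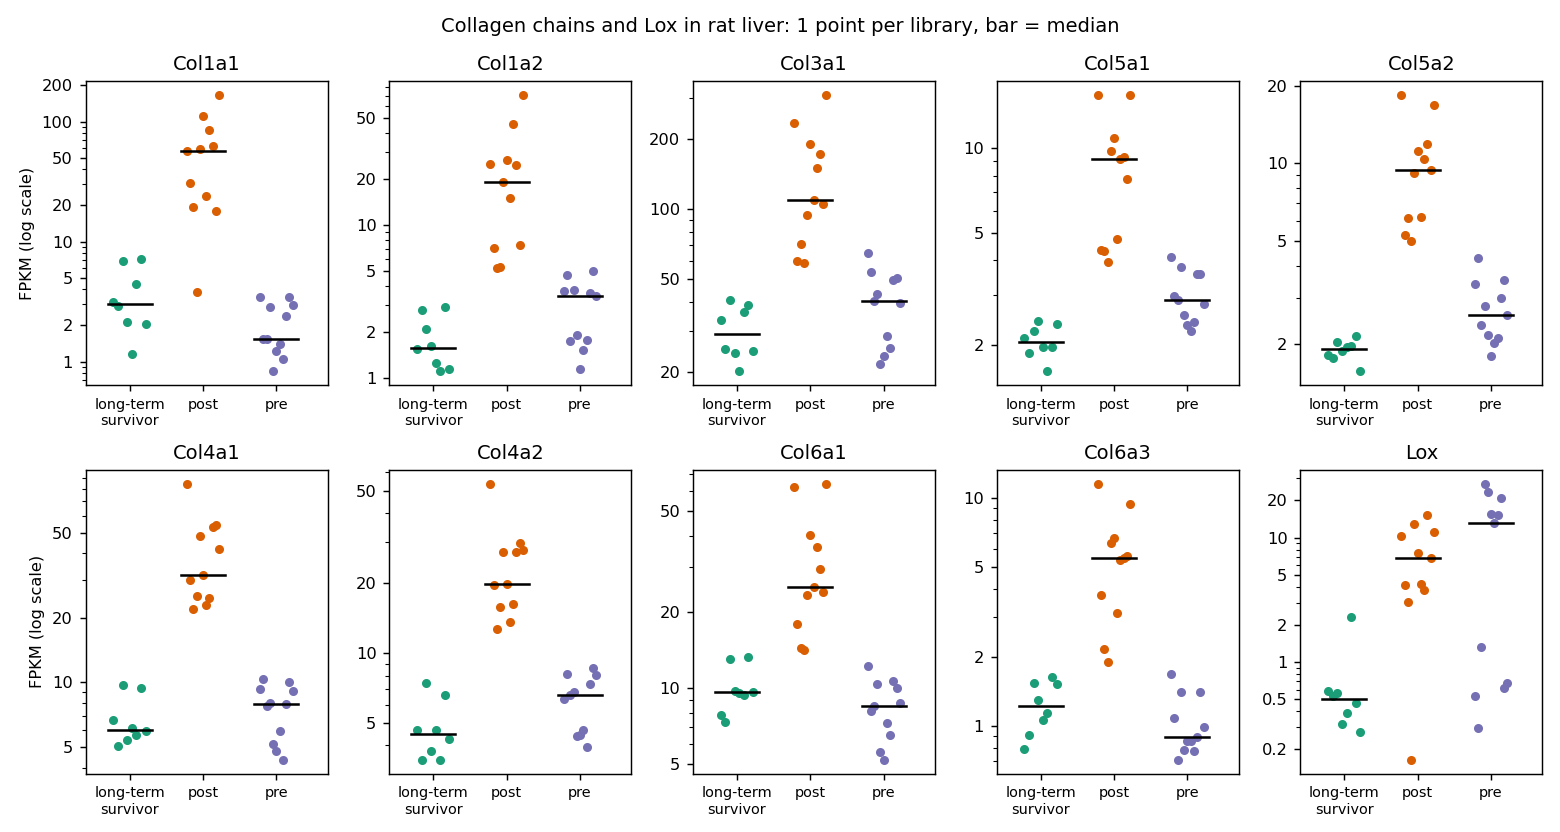
Level of each gene in FPKM (log scale) with 1 point per library in long-term survivor, post-transplant and pre-transplant livers, and the group median as a bar. The post-transplant points of all chains lie high, with Col1a1 between 3.78 and 167 FPKM, while the Lox points of pre-transplant livers fall far apart, between 0.293 and 27.3 FPKM.

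Col1a1 encodes the alpha 1 chain of type I collagen (ENSRNOG00000003897, chr10:82745801-82762789, plus strand, in the table's coordinates). Its level ran from 3.78 over a median of 57.0 to 167 FPKM in the 11 post-transplant livers, against 0.830, 1.55 and 3.45 FPKM (lowest, median, highest) in the 11 pre-transplant livers. The groups did not overlap, although post-transplant replicate 5, the lowest, stood just above the highest pre-transplant liver. The log2 fold change was 3.80 ± 0.40 (SE, 95% interval 2.99 to 4.62, adjusted p = 1.92e-08). Post-transplant livers differed widely among themselves: the highest, replicate 12, held 44.2 times the level of the lowest, or 9.36 times without replicate 5, against 4.16 times between extremes of the pre-transplant livers. These levels rest on 281 to 19936 reads per post-transplant library and 74 to 345 per pre-transplant library.

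Col1a2, the partner chain in type I collagen, stood in the table under the name NEWGENE_621351 (ENSRNOG00000011292, chr4:31534225-31569151, plus strand). It ran from 5.27 over 19.3 to 71.4 FPKM in post-transplant livers, against 1.16, 3.45 and 5.02 FPKM in pre-transplant livers. The groups did not overlap, by a narrow margin, and the log2 fold change was 2.26 ± 0.33 (adjusted p = 2.25e-06). A further row with the same name and description held at most 2 reads in any library, so nearly all counted reads fell on 1 of the 2 rows. How reads that match both rows were counted is not known, and the level of Col1a2 may be affected. Because Col1a1 differed more than Col1a2, their ratio of FPKM had a median of 2.40 in post-transplant livers and 0.751 in pre-transplant livers, and 10 of 11 post-transplant ratios lay above the highest pre-transplant ratio of 1.05. Replicate 5 was the exception, at 0.708.

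Col3a1, the chain of type III collagen (ENSRNOG00000003357, chr9:52023295-52059217, plus strand), was the most abundant member in all 11 post-transplant livers and in 10 of 11 pre-transplant livers. It reached 58.6, 110 and 311 FPKM (lowest, median, highest) in post-transplant livers, against 21.5, 40.4 and 64.8 FPKM in pre-transplant livers. The groups overlapped: 9 of 11 post-transplant livers lay above all pre-transplant livers, and replicates 3 and 5 did not. The log2 fold change was 1.68 ± 0.25 (adjusted p = 2.96e-06). The table lists an unnamed gene model inside this locus at 0 FPKM in every library.

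The type V chains, which nucleate and narrow type I fibrils, were much lower in level than Col3a1 in both groups. In pre-transplant livers their medians, 2.88 FPKM for Col5a1 and 2.59 FPKM for Col5a2, lay above that of Col1a1, at 1.55 FPKM. Col5a2 (ENSRNOG00000003736, chr9:52092511-52238564, minus strand) ran from 5.0 over 9.40 to 18.4 FPKM in post-transplant livers, against 1.79, 2.59 and 4.31 FPKM in pre-transplant livers, without overlap (log2 fold change 1.48 ± 0.16, adjusted p = 3.62e-08). Col5a1 (ENSRNOG00000008749, chr3:6430201-6578882, plus strand) ran from 3.95 over 9.17 to 15.5 FPKM in post-transplant livers, against 2.24, 2.88 and 4.10 FPKM in pre-transplant livers, and 10 of 11 post-transplant livers lay above all pre-transplant livers (1.15 ± 0.17, adjusted p = 3.23e-06). Replicates 2 and 12 were the highest in both chains and also in Col3a1, Col6a1 and Col6a3, and replicates 3, 4, 5 and 8 were the lowest 4 in both.

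Both basement membrane chains rose. Col4a1 (ENSRNOG00000016281, chr16:83522162-83632153, plus strand) ran from 21.9 over 31.8 to 84.6 FPKM in post-transplant livers, against 4.36, 7.93 and 10.4 FPKM in pre-transplant livers, so that the lowest post-transplant liver held over 2 times the level of the highest pre-transplant one. Its log2 fold change was 2.18 ± 0.19 (95% interval 1.79 to 2.58, adjusted p = 1.68e-09), the smallest adjusted p of the members. Col4a2 (ENSRNOG00000023972, chr16:83387364-83438561, minus strand) ran from 12.7 over 19.8 to 53.7 FPKM in post-transplant livers, against 3.96, 6.60 and 8.62 FPKM in pre-transplant livers, again without overlap (1.69 ± 0.18, adjusted p = 3.48e-08). The order of libraries was nearly shared, with replicate 2 highest and replicate 4 lowest in both. Even so, the ratio of Col4a1 to Col4a2 was 1.5 to 1.95 in post-transplant livers and 1.07 to 1.47 in pre-transplant livers, and all 11 post-transplant ratios lay above all pre-transplant ones.

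Col6a1, a chain of the type VI filaments (ENSRNOG00000001249, chr20:12658065-12675561, plus strand), ran from 14.2 over 25.2 to 64.4 FPKM in post-transplant livers, against 5.20, 8.46 and 12.2 FPKM in pre-transplant livers. The groups did not overlap and the log2 fold change was 1.67 ± 0.21 (adjusted p = 2.52e-07). The row described as Col6a3, named AABR07068316.1 and typed as a processed transcript (ENSRNOG00000019648, chr9:97926787-98004546, minus strand), ran from 1.91 over 5.47 to 11.6 FPKM in post-transplant livers, against 0.708, 0.890 and 1.69 FPKM in pre-transplant livers, without overlap (1.57 ± 0.18, adjusted p = 7.32e-08). Another type VI chain, outside the set, Col6a2, averaged 25.3 ± 14.7 FPKM in post-transplant and 5.17 ± 1.5 FPKM in pre-transplant livers (SD, n = 11 each), and rose as well (1.95 ± 0.21, adjusted p = 2.60e-08).

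**Figure D2:**
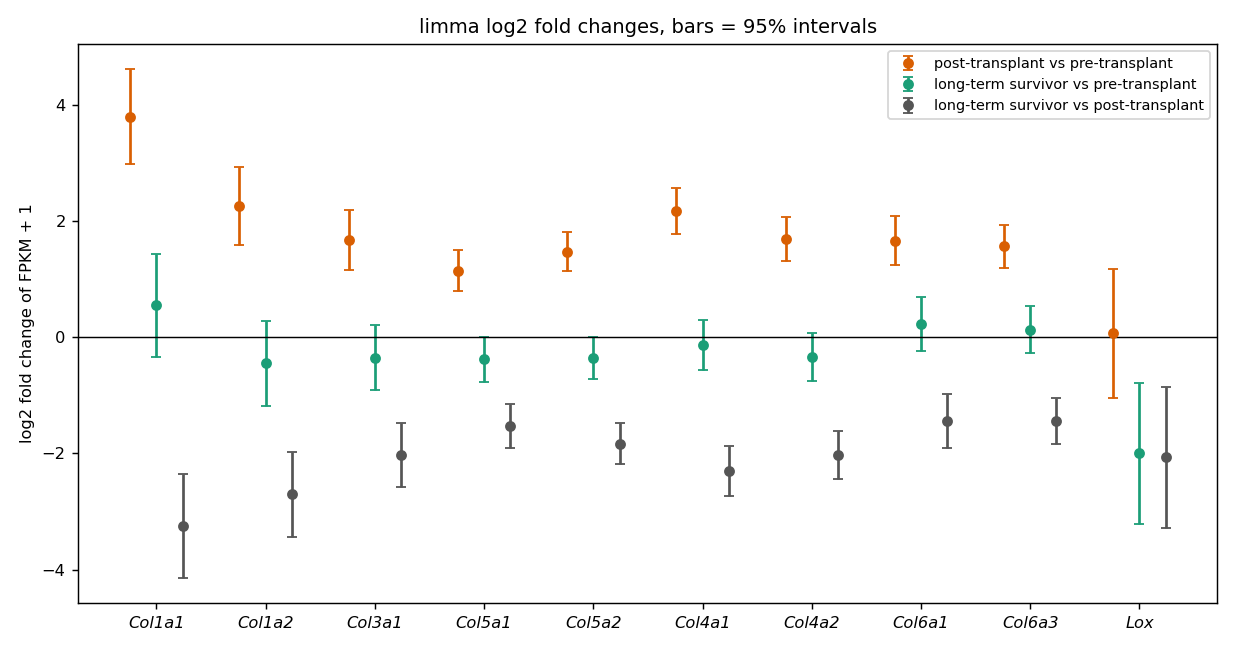
Log2 fold changes of FPKM + 1 from limma with 95% intervals, per gene and comparison. The post- against pre-transplant interval of Col1a1, 2.99 to 4.62, lies above those of Col3a1, both type V chains, both type IV chains and both type VI chains, the interval of Lox spans 0, and all intervals of long-term survivors against post-transplant livers lie below 0.

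Lox (ENSRNOG00000014426, chr18:47500330-47577819, minus strand) did not pass the test, and its difference from the chains was not tested. It had 0.163, 6.82 and 15.1 FPKM (lowest, median, highest) in post-transplant livers, against 0.293, 13.1 and 27.3 FPKM in pre-transplant livers. The ranges of the groups overlapped, but most post-transplant livers lay between 1.33 and 13.1 FPKM, where no pre-transplant liver stood. The log2 fold change was 0.07 ± 0.55 (adjusted p = 0.923), and its 95% interval of -1.04 to 1.19 spans sizeable changes in both directions. The estimate turned negative with array weights, at -0.47, and without pre-transplant replicates u1 and u2, the 2 columns that share the header M16, at -0.36. The table's Lox locus spans 77490 bases for a gene model of 4807 bases, and both other genes inside it, Znf474 and a Y_RNA, were at 0 FPKM.

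Pre-transplant livers held Lox at separate levels that followed the sample titles. Replicates 4 to 6, titled M8 to M10, had 15.4 to 27.3 FPKM, and replicates 10 to 12, titled M21 to M23, had 13.1 to 21 FPKM. Replicates 1 to 3, titled M2 to M4, had 0.293 to 1.33 FPKM, and replicates u1 and u2, both headed M16, had 0.613 and 0.678 FPKM. In replicate 5 Lox, at 23.2 FPKM, was above Col3a1, at 21.5 FPKM.

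Read within stretches of consecutive titles, the Lox difference changed direction. The ratio of post- to pre-transplant medians was 13.5 for titles 2 to 7 and 6.59 for titles 16 to 20, with every post-transplant liver above the pre-transplant ones. For titles 8 to 13 the ratio was 0.132, with every post-transplant liver below, and for titles 21 to 26 it was 0.734 with overlap. The labels do not call these stretches batches, and each holds only 2 or 3 livers per group, so none was tested on its own. A limma fit of the post- and pre-transplant libraries with the stretches as a block, chosen after seeing the data, gave Lox 0.05 (adjusted p = 0.940) and called the same number of members, 7. The chains kept 1 direction: the ratio for Col1a1 was 28.3, 15.9, 26.5 and 44.9 over titles 2 to 7, 8 to 13, 16 to 20 and 21 to 26, and for Col4a1 it was 6.14, 4.93, 2.57 and 8.91. Within each stretch every post-transplant liver lay above every pre-transplant one for all 7 chains, except for Col3a1 in titles 2 to 7. For Col1a1, Col4a1, Col4a2, Col5a2 and Col6a1 this had to hold, because their whole groups did not overlap.

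**Figure D3:**
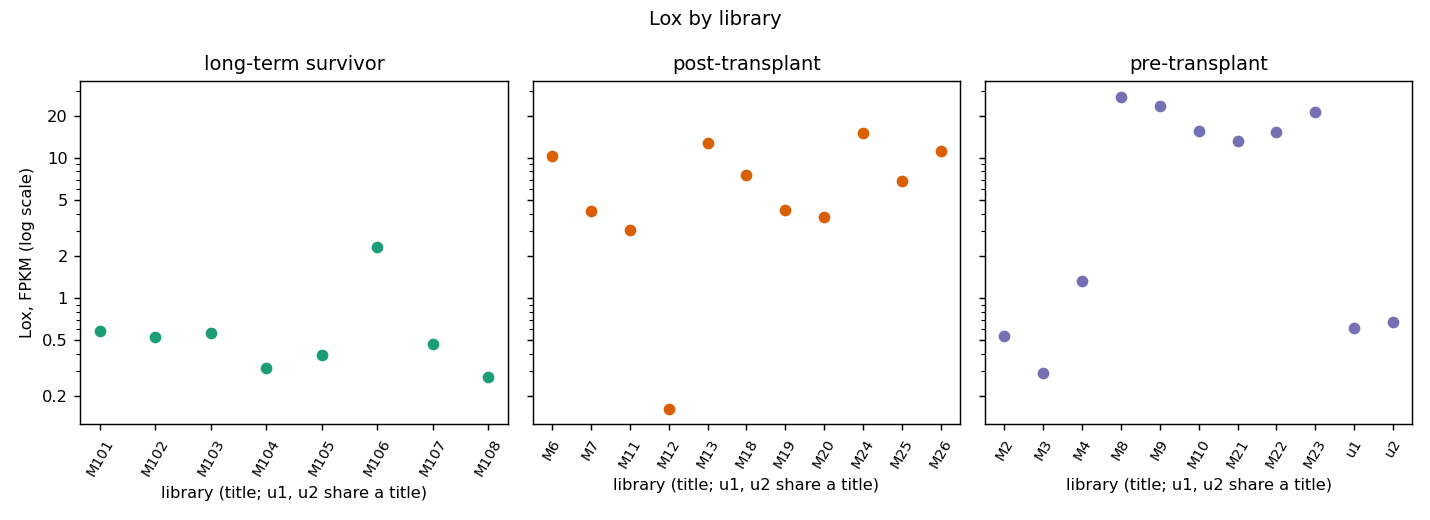
Lox in FPKM (log scale) per library, ordered by the title number of the sample within long-term survivor, post-transplant and pre-transplant livers. Pre-transplant libraries M8 to M10 and M21 to M23 lie at 13.1 to 27.3 FPKM and the other 5 at 0.293 to 1.33 FPKM, while M12 is the lowest post-transplant library at 0.163 FPKM.

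The make-up of the RNA of the 7 chains among the members differed after transplantation. Other collagen chains lie outside this sum. Among them, Col18a1 averaged 150.9 ± 36.9 FPKM in post-transplant and 114.0 ± 16.4 FPKM in pre-transplant livers (SD, n = 11 each), above Col3a1 in both groups. The FPKM of the 7 chains among the members summed to 127 to 644 in post-transplant livers and 42.2 to 103.7 in pre-transplant livers, without overlap. Col1a1 made up 16.4% ± 8.0 of that sum in post-transplant livers and 2.85% ± 0.77 in pre-transplant livers (SD, n = 11 each), with 10 of 11 post-transplant livers above all pre-transplant ones. Col3a1 had a smaller share, 44.6% ± 5.3 in post-transplant livers against 56.4% ± 3.2 in pre-transplant livers, with 10 of 11 post-transplant livers below all pre-transplant ones. The type IV chains together made up 10.8% to 33.8% in post-transplant livers and 15.1% to 23.3% in pre-transplant livers. Here 5 post-transplant livers lay above the whole pre-transplant range and 3 lay below it.

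**Figure D4:**
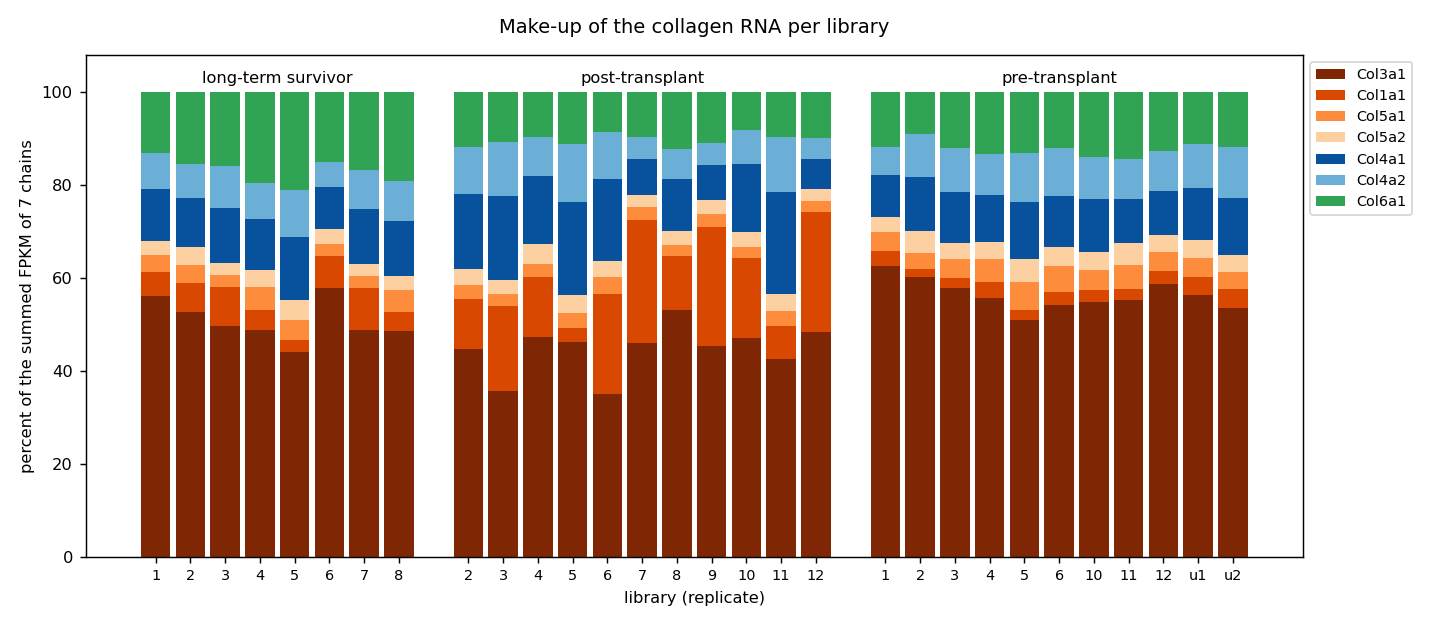
Share of each of 7 chains in their summed FPKM, in percent, with 1 bar per library in long-term survivor, post-transplant and pre-transplant livers. The Col1a1 part is widest in post-transplant replicates, at a mean of 16.4% against 2.85% in pre-transplant livers, and post-transplant replicate 5 keeps it at 2.98%.

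The balance of Col1a1 and Col4a1 differed widely from liver to liver after transplantation, and no correlation was tested. The ratio of Col1a1 to Col4a1 ran from 0.149 to 3.995 in post-transplant livers, with a median of 1.05, and from 0.148 to 0.370 in pre-transplant livers. Col3a1 over Col4a1 was 5.99, 4.75 and 6.11 in replicates 7 to 9, titled M18 to M20, and 7.44 in replicate 12. The other post-transplant livers had 1.95 to 3.25, and whether these ratios follow the titles was not tested. Replicate 12 had 167 FPKM of Col1a1 with 41.8 FPKM of Col4a1, and replicate 9 had 84.8 with 24.7. At the other end, replicate 11 had 17.8 FPKM of Col1a1 with 54.2 FPKM of Col4a1, and replicate 5 had 3.78 with 25.4. Replicate 5 thus held its type IV and type VI chains above every pre-transplant liver while its Col1a1 stood next to the pre-transplant levels. The same library had the lowest Lox of all 30, at 0.163 FPKM on 10 reads.

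**Figure D5:**
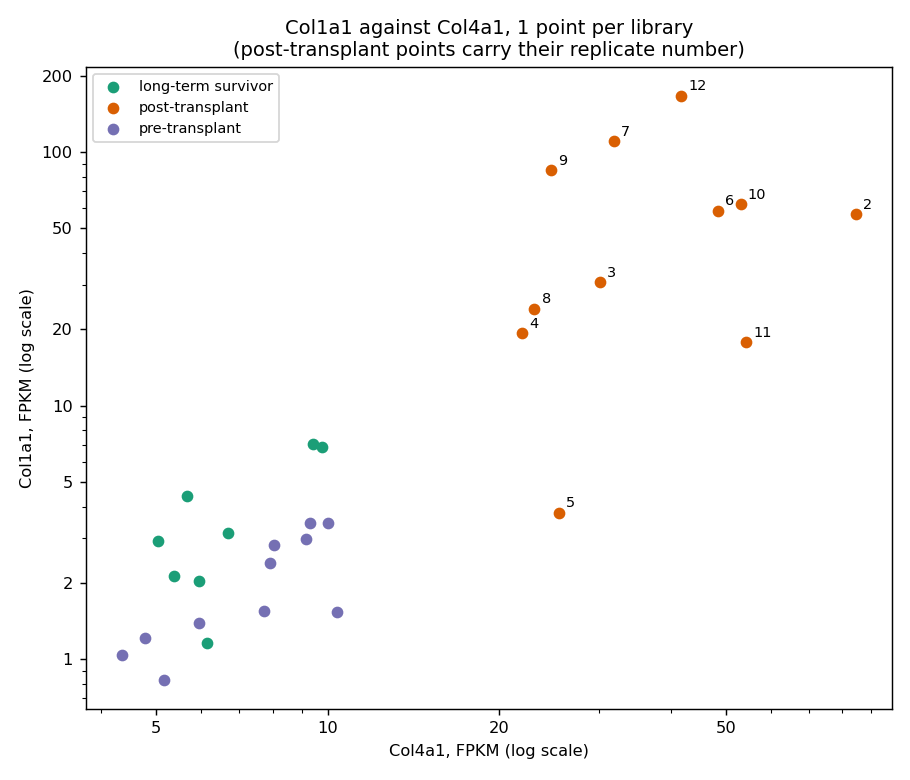
Col1a1 against Col4a1 in FPKM (both axes log scale), 1 point per library, with replicate numbers at the post-transplant points. Post-transplant livers with similar Col4a1, such as replicates 5 and 9 at 25.4 and 24.7 FPKM, lie far apart in Col1a1, at 3.78 and 84.8 FPKM.

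Genes whose deviations from their group means came closest to those of Col1a1 over the 30 libraries were Loxl1, a lysyl oxidase of the same family, at a mean gap of 0.384 log2 units, Col1a2 at 0.388, the lectin gene Lgals1 at 0.392, the actin-binding protein gene Tagln at 0.408 and the non-muscle myosin gene Myh10 at 0.414. The mean deviation of Col1a1 itself was 0.710 and the median gap over all genes tested 0.735. For Col4a1, with a mean deviation of 0.378 and a median gap of 0.422, the closest was Col4a2 at 0.080. Nid1, which links laminin to type IV collagen, followed at 0.175, then Myof at 0.180, the kinase gene Src at 0.181 and Pxdn, whose product cross-links type IV collagen, at 0.187. For Lox no gene came close: the smallest gaps, looked up after its values were seen, were 0.692 for Ptk6, 0.712 for St8sia1, 0.727 for Nim1k and 0.729 for Npas2, against a mean deviation of 1.02 for Lox. These genes were picked for deviations like those of Lox, so a split by title like its own follows in part from that choice. Npas2 had 4.50 to 5.61 FPKM in pre-transplant livers M8 to M10 and 4.94 to 5.68 in M21 to M23, against 0.601 to 0.951 in M2 to M4 and 2.62 and 3.68 in the columns headed M16. Ptk6 and St8sia1, which came closer, had 6.67 and 7.14 FPKM in u1 and 0.585 and 1.19 FPKM in u2, where Lox had 0.613 and 0.678 FPKM. All of these likenesses share the libraries and their scaling.

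Genes that make, process and cross-link collagen moved in part with the chains. Beside the counts of matrix genes given here and below for post-transplant against pre-transplant livers, 23.4% of all genes tested rose and 26.6% fell. Of 16 tested enzymes and chaperones that fold and modify collagen, 11 rose in post-transplant against pre-transplant livers (median log2 fold change 0.33, against -0.03 over all genes tested), and the other 5, among them P4hb and Ppib, did not pass. Plod2, which hydroxylates lysines in the telopeptides, averaged 5.36 ± 3.30 FPKM in post-transplant and 0.440 ± 0.177 FPKM in pre-transplant livers (SD, n = 11 each, log2 fold change 1.95 ± 0.23, adjusted p = 1.19e-07). Serpinh1, the collagen chaperone HSP47, averaged 46.6 ± 19.1 FPKM in post-transplant and 12.4 ± 3.0 FPKM in pre-transplant livers (1.74 ± 0.19, adjusted p = 3.98e-08). Fkbp10, a prolyl isomerase of the endoplasmic reticulum, rose by 1.27 ± 0.16 (adjusted p = 1.87e-07).

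Of 8 tested genes for procollagen processing and cross-linking other than Lox, 5 rose and 1, the C-proteinase gene Bmp1, fell (median 1.20). Pcolce, which enhances that proteinase, averaged 48.9 ± 30.7 FPKM in post-transplant and 3.85 ± 2.64 FPKM in pre-transplant livers (3.31 ± 0.36, adjusted p = 3.61e-08). Postn, a matrix protein that helps to assemble fibrils, averaged 8.63 ± 8.68 FPKM in post-transplant and 0.0189 ± 0.0267 FPKM in pre-transplant livers (2.68 ± 0.34, adjusted p = 3.39e-07). Of the Lox relatives, Loxl1 (1.52 ± 0.25, adjusted p = 1.13e-05) and Loxl2 (1.17 ± 0.17, adjusted p = 1.67e-06) both rose, while Loxl4 had 0.13 ± 0.19 (adjusted p = 0.585). The difference between Lox and its relatives was not tested.

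Of 13 tested partners in the basement membrane, 10 rose and Smoc1, which binds calcium, fell (median 0.74). Nid1 rose by 1.17 ± 0.18 (adjusted p = 5.19e-06), and Sparc, a collagen-binding matrix protein, by 1.15 ± 0.15 (adjusted p = 4.61e-07). Of 12 tested fibril-binding proteoglycans and matrix proteins, 8 rose and 1, dermatopontin (Dpt), fell (median 1.02). Decorin (Dcn) and lumican (Lum), which coat fibrils, rose by 2.60 ± 0.22 (adjusted p = 6.30e-10) and 2.52 ± 0.31 (adjusted p = 2.48e-07), and Efemp2, needed for elastic fibres, by 1.87 ± 0.18 (adjusted p = 5.14e-09).

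Among the genes for collagen breakdown, 9 of 10 tested rose and Mmp19 fell (median 1.05). Both sides were represented: Timp1, an inhibitor, averaged 27 ± 17 FPKM in post-transplant and 3.97 ± 2.92 FPKM in pre-transplant livers (2.36 ± 0.32, adjusted p = 7.47e-07), and the proteinase genes Mmp9 (1.82 ± 0.34, adjusted p = 5.21e-05) and Mmp8 (1.43 ± 0.22, adjusted p = 5.37e-06) rose too. Of 3 tested collagen receptor genes 2 rose, the integrin chain Itgb1 by 0.85 ± 0.12 (adjusted p = 1.86e-06) and the tyrosine kinase Ddr1 by 0.79 ± 0.18 (adjusted p = 5.47e-04). Of 9 tested other collagen chains 4 rose and Col4a4 fell (median 0.18). Col12a1, a chain that sits on fibril surfaces, averaged 2.86 ± 1.01 FPKM in post-transplant and 0.481 ± 0.175 FPKM in pre-transplant livers (1.34 ± 0.12, adjusted p = 1.13e-09), and Col8a1 rose by 0.50 ± 0.16 (adjusted p = 0.00979).

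Markers of several cell types moved with the collagens, and their part in the result was not tested. Their counts stand beside 23.4% of all genes tested that rose and 26.6% that fell. The stellate cell and myofibroblast markers (15 genes) summed to 129 to 386 FPKM in post-transplant and 33.5 to 67.7 FPKM in pre-transplant livers, and 8 of 12 tested rose, among them Vim (2.66 ± 0.26, adjusted p = 5.36e-09), Acta2, the smooth muscle actin (2.11 ± 0.24, adjusted p = 5.96e-08), and Tagln (1.93 ± 0.26, adjusted p = 7.46e-07). Lrat, which stores retinol esters in quiescent stellate cells, was not among them, at -0.33 ± 0.18 (adjusted p = 0.121). The portal fibroblast and smooth muscle markers (9 genes) summed to 45.9 to 196 FPKM in post-transplant and 30.1 to 54.2 FPKM in pre-transplant livers. Of 5 tested, 4 were higher, among them Thy1, Gas6 and Cd34. Gas6 alone averaged 83.7 ± 49.6 FPKM in post-transplant and 32.5 ± 5.98 FPKM in pre-transplant livers (SD, n = 11 each), most of these sums. Macrophage markers (10 genes) summed to 612 to 1810 FPKM in post-transplant and 186 to 684 FPKM in pre-transplant livers, with 9 of 10 tested higher, led by Marco, Csf1r and Cd68. Endothelial markers (11 genes) summed to 126 to 183 FPKM in post-transplant and 78.7 to 167 FPKM in pre-transplant livers, with 5 of 11 higher, among them Esam and Cdh5, and Kdr lower. Bile duct cell markers (10 genes) summed to 53.6 to 101.2 FPKM in post-transplant and 34.7 to 75.2 FPKM in pre-transplant livers. Of 8 tested, 4 were higher, among them Spp1, Cldn7 and Sox9, and 1 was lower. Of the 12 hepatocyte markers 6 fell, among them Cyp2e1, Ttr and Alb. The median log2 fold changes were 1.14 for stellate cell, 1.08 for portal fibroblast, 1.52 for macrophage, 0.28 for endothelial, 0.47 for bile duct and -0.50 for hepatocyte markers. No marker of these lists was at 0 in every library of a group.

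In long-term survivors no chain among the members was called against pre-transplant livers in the fit of the 3 groups together. Whether the levels were equal was not tested. Of the 8 members Lox alone passed the test against pre-transplant livers and was lower, where 30.8% of the genes tested fell, 3.85% rose and 34.7% passed in either direction. That split depends on the scaling: with median-of-ratios scaling 1146 of 11904 genes fell and 983 rose, and Lox stayed the only member called. No chain rose, which at a share of 3.85% is near the background: the count was 0 by limma, 0 at an unadjusted p under 0.05 and 0 by voom on the recovered reads. All genes tested had a median log2 change of -0.17 in this comparison, which was -0.01 after median-of-ratios scaling. The log2 fold change of each member with that scaling is therefore added below. Other matrix genes and markers named in this comparison are given without it. This comparison and the one above share their pre-transplant livers.

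Col1a1 had 1.16, 3.03 and 7.09 FPKM (lowest, median, highest) in the 8 long-term survivors, against 0.830, 1.55 and 3.45 FPKM in pre-transplant livers. The groups overlapped, with 3 of 8 long-term survivors above all pre-transplant livers, of which replicates 3 and 7 are a close pair. The log2 fold change was 0.56 ± 0.44 (95% interval -0.33 to 1.45, adjusted p = 0.337), and 0.70 with median-of-ratios scaling (adjusted p = 0.280). Replicates 3 and 7 were also the highest 2 long-term survivors in Col3a1, Col4a1, Col4a2, Col5a2 and Col6a1.

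Col3a1 had 20.1, 29.2 and 40.7 FPKM in long-term survivors, against 21.5, 40.4 and 64.8 FPKM in pre-transplant livers (-0.35 ± 0.27, adjusted p = 0.337). Col4a1 had 5.03, 6.04 and 9.78 FPKM in long-term survivors, against 4.36, 7.93 and 10.4 FPKM in pre-transplant livers, a log2 fold change of -0.12 ± 0.21 (adjusted p = 0.680) that was 0.06 with median-of-ratios scaling. Col4a2 had 3.47, 4.47 and 7.43 FPKM in long-term survivors, against 3.96, 6.60 and 8.62 FPKM in pre-transplant livers (-0.33 ± 0.20, adjusted p = 0.206). The intervals of these 3 chains reached from -0.90 to 0.21, from -0.55 to 0.31 and from -0.74 to 0.08. With median-of-ratios scaling Col3a1 was at -0.15 (limma adjusted p = 0.755) and Col4a2 at -0.16 (adjusted p = 0.627).

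The type V chains came nearest to the threshold. Col5a1 had 1.61, 2.05 and 2.43 FPKM in long-term survivors, against 2.24, 2.88 and 4.10 FPKM in pre-transplant livers, and 5 of 8 long-term survivors lay below all pre-transplant livers (-0.38 ± 0.19, adjusted p = 0.121). Col5a2 had 1.57, 1.91 and 2.14 FPKM in long-term survivors, against 1.79, 2.59 and 4.31 FPKM in pre-transplant livers (-0.35 ± 0.18, adjusted p = 0.126). Both passed when only the groups compared entered the fit (adjusted p = 0.00326 for Col5a1 and 0.0132 for Col5a2). With median-of-ratios scaling they were at -0.23 and -0.21 (adjusted p = 0.423 and 0.443). The fit of the 3 groups shares 1 estimate of the spread, so its SEs and intervals rest in part on post-transplant livers. The SDs of Col5a1 and Col5a2 were 48.3% and 44.7% of their means in post-transplant livers. They were 13.1% and 9.3% in long-term survivors and 21.1% and 28.3% in pre-transplant livers. Long-term survivors differed little among themselves in these chains, by 1.51 and 1.37 times between extremes.

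Col6a1 had 7.33, 9.62 and 13.3 FPKM in long-term survivors, against 5.20, 8.46 and 12.2 FPKM in pre-transplant livers (0.23 ± 0.23, adjusted p = 0.463). With median-of-ratios scaling it was at 0.41 (limma adjusted p = 0.219). Its share of the 7 chains' summed FPKM was 13.1% to 21% in long-term survivors, 8.09% to 12.2% in post-transplant livers and 9.10% to 14.3% in pre-transplant livers. All 8 long-term survivors lay above all post-transplant livers in that share and 7 of 8 above all pre-transplant ones. Col1a2 and Col6a3 had log2 fold changes of -0.44 ± 0.36 (adjusted p = 0.355) and 0.14 ± 0.20 (adjusted p = 0.622) against pre-transplant livers. Col1a2 had 1.11, 1.58 and 2.92 FPKM in long-term survivors, against 1.16, 3.45 and 5.02 FPKM in pre-transplant livers. The ratio of Col1a1 to Col1a2 had a median of 1.90 in long-term survivors and 0.751 in pre-transplant livers, with 6 of 8 long-term survivors above all pre-transplant livers.

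Lox had 0.272, 0.500 and 2.31 FPKM in long-term survivors, against 0.293, 13.1 and 27.3 FPKM in pre-transplant livers. The log2 fold change was -1.99 ± 0.59 (adjusted p = 0.0102), and -1.90 with median-of-ratios scaling (adjusted p = 0.0245). The groups overlapped: the long-term survivors stood beside the pre-transplant livers M2 to M4 and the columns headed M16, at 0.293 to 1.33 FPKM, and below M8 to M10 and M21 to M23. The call was lost with voom (-2.84, adjusted p = 0.0954) and when the close pairs were averaged with median-of-ratios scaling (-1.83, adjusted p = 0.0755).

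Other matrix genes in long-term survivors differed from pre-transplant livers in either direction. Decorin (7.70 ± 3.09 FPKM in long-term survivors, n = 8, against 2.27 ± 1.38 FPKM in pre-transplant livers, n = 11, SD) rose by 1.42 ± 0.24 (adjusted p = 5.18e-05), Efemp2 by 0.98 ± 0.20 (adjusted p = 3.81e-04) and Pcolce by 1.64 ± 0.40 (adjusted p = 0.00208). Col13a1, a transmembrane collagen, fell by 0.91 ± 0.14 (adjusted p = 1.88e-05), as did Loxl2, by 0.52 ± 0.18 (adjusted p = 0.0281). The laminin chain genes Lama5 (0.74 ± 0.18, adjusted p = 0.00274) and Lamb1 (0.55 ± 0.19, adjusted p = 0.0263) rose, as did Mmp15 (1.12 ± 0.20, adjusted p = 1.5e-04), Timp3 (0.67 ± 0.24, adjusted p = 0.0302), the regulator Creb3l1 (0.68 ± 0.17, adjusted p = 0.00327) and the receptor gene Ddr1 (0.93 ± 0.20, adjusted p = 6.24e-04). Ppib, an isomerase, fell by 0.35 ± 0.11 (adjusted p = 0.0167) and the integrin chain Itga1 by 0.76 ± 0.17 (adjusted p = 9.74e-04). By list, the folding enzymes had 1 of 16 higher and 2 lower, the processing genes 1 of 8 higher and 2 lower, the breakdown genes 3 of 10 higher and 2 lower, the basement membrane partners 2 of 13 higher, the fibril-binding genes 3 of 12 higher and the other collagen chains 1 of 9 lower, beside 3.85% higher and 30.8% lower over all genes tested. The medians of these lists were -0.12, 0.08, 0.07, 0.11, 0.28 and -0.20 in that order, against -0.17 over all genes tested.

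Cell type markers in long-term survivors moved beside these values, and their part was not tested. All 8 tested bile duct cell markers rose, against 3.85% of all genes tested (983 of 11904 with median-of-ratios scaling), with sums of 57.5 to 203 FPKM in long-term survivors against 34.7 to 75.2 FPKM in pre-transplant livers, led by Spp1 and Cldn7. The stellate cell and myofibroblast markers summed to 64.3 to 118 FPKM in long-term survivors, against 33.5 to 67.7 FPKM in pre-transplant livers, with 5 of 12 higher, among them Vim and Rgs5, and 2 lower. Of 11 endothelial markers 6 fell, among them Lyve1 and Kdr, where 30.8% of all genes tested fell (1146 of 11904 with median-of-ratios scaling). The endothelial sums were 54.6 to 112 FPKM in long-term survivors against 78.7 to 167 FPKM in pre-transplant livers. Portal fibroblast markers had 2 of 5 higher (Gas6 and Cd34) and 1 lower, macrophage markers 1 of 10 higher (Cd68) and hepatocyte markers 1 of 12 lower (Asgr1). Summed levels in long-term survivors and pre-transplant livers were 41.4 to 87.8 and 30.1 to 54.2 FPKM for portal fibroblast markers and 337 to 523 and 186 to 684 FPKM for macrophage markers. Gas6 alone averaged 54.4 ± 16.2 FPKM in long-term survivors (SD, n = 8).

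Against post-transplant livers all 8 members were lower in long-term survivors, where 36.9% of the genes tested fell, 10.5% rose and 47.4% passed in either direction. With median-of-ratios scaling 2487 of 11904 genes fell and 2576 rose, and all 8 members were still called lower. For 6 of the 8 members every long-term survivor lay below every post-transplant liver, which held for 5.59% of the genes tested. The exceptions were Col1a1, where 5 of 8 long-term survivors lay below post-transplant replicate 5 and with it below all post-transplant livers, and Lox. The log2 fold changes were -3.25 ± 0.44 for Col1a1 (adjusted p = 1.32e-06), -2.31 ± 0.21 for Col4a1 (adjusted p = 9.06e-09), -2.03 ± 0.27 for Col3a1 and -2.02 ± 0.20 for Col4a2. Col5a2, Col5a1 and Col6a1 had -1.83 ± 0.18, -1.53 ± 0.19 and -1.44 ± 0.23, and Lox had -2.07 ± 0.59 (adjusted p = 0.00531). The median over all genes tested was -0.16, and with median-of-ratios scaling Col1a1 was at -3.08 and Col6a1, the smallest, at -1.25.

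Lists of matrix genes held both lower and higher genes in this comparison, beside the 36.9% lower and 10.5% higher over all genes tested. Of the folding enzymes 14 of 16 fell and Creb3l1 rose, of the processing genes 5 of 8 fell, of the fibril-binding genes 8 of 12 fell and Dpt rose, of the basement membrane partners 6 of 13 fell and Smoc1 rose, of the breakdown genes 7 of 10 fell and Mmp15 rose, of the other collagen chains 5 of 9 fell, and of the collagen receptors 2 of 3 fell. Stellate cell markers had 8 of 12 lower and Hand2 higher, and portal fibroblast markers 3 of 5 lower. Macrophage and endothelial markers had 9 of 10 and 9 of 11 lower, while 6 of 8 bile duct and 5 of 12 hepatocyte markers were higher.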

How the data were processed

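Polyadenylated RNA of rat liver was sequenced. The authors deposited 1 table of FPKM per gene and library with gene lengths as another column. No header names the unit, which follows from the numbers: FPKM times length gave whole reads (within 0.02 reads, up to 5000 reads) for all values of Ensembl genes, with scaling factors between libraries of 0.7828 to 1.4104. The submitters' processing notes name HISAT2 2.0.5 and, as builds, mm10 and Rnor_6.0. The counting program is not given in the sources used here, nor is its use of strand.

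Of 32 columns of values, 30 were used. A header on 2 columns matched a post-transplant sample, and both columns were left out. The header M16, on 2 columns, gave pre-transplant replicates u1 and u2. The plan had assumed 12 pre-transplant and 12 post-transplant libraries.

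The 11924 genes that reached 1 FPKM in 8 or more libraries were tested with limma 3.58.1 in R 4.3.3 on log2(FPKM + 1), fitting the 3 groups together with trend and robust empirical Bayes, two-sided, and adjusted by Benjamini-Hochberg over all of them (threshold 0.05). The fit was tested on simulated data. P-values adjusted over a gene list alone are not given. The members and lists were chosen with earlier results of these data known. Named were the 10 genes of the set, per other list the 3 called genes with the greatest change after transplantation and the 2 in long-term survivors, both against pre-transplant livers, and the 5 genes most like Col1a1 and Col4a1 by the mean absolute gap of deviations from group means. Other genes named, such as Loxl2, Loxl4, Lrat, P4hb and the genes nearest Lox, were chosen after their values were seen. A gene that this rule named is left out of the text. Windows around gene starts came from RefSeq (GRCr8), and whether these starts are those of transcription was not tested.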

Additional observations from a re-analysis of the deposited data

Results flagged for a closer look

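In long-term survivor replicate 6, Lox stood at 2.31 FPKM, far above the other 7 long-term survivors, of which the next highest had 0.586 FPKM. The gap took up 0.846 of the range of the group, above the critical value of 0.526 for 8 samples in Dixon's test. Chance sets off this test in about 1 in 20 groups, and 10 genes were examined in the group of 8. Groups of 11 were not examined.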

How the results depend on the processing

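The rises of all 7 chains among the members after transplantation, and of Col1a2 and Col6a3, held in 42 of 42 alternatives, and the lower levels of all 8 members in long-term survivors against post-transplant livers in 41 of 41. Leaving out 1 library at a time gave 7 to 7 and 8 to 8 members called, and 5550 to 6174 and 5248 to 5829 genes. For long-term survivors against pre-transplant livers it gave 1 to 1 members and 3593 to 4241 genes. There, 3 members were called with only the groups compared, 2 with array weights, 0 with voom and 0 with pairs averaged and median-of-ratios scaling, an alternative chosen after seeing the data. Genes called there fell to 2129 with median-of-ratios scaling, 1973 with quantile normalization and 1205 with pairs averaged and that scaling, against 4134. Col4a1 in the same comparison turned to 0.0555 with median-of-ratios scaling, 0.0516 with quantile normalization and 0.0046 with pairs averaged as well. Lox after transplantation turned to -0.4664 with array weights and -0.3609 without u1 and u2. Leaving out 1 library at a time it ranged from -0.1567 to 0.3265, below 0 without post-transplant replicate 2, 6, 10 or 12 or pre-transplant replicate 1, 2, 3, u1 or u2, never passing the test. The cause was not tested. No paired analysis was run, because the labels do not say which libraries of different groups belong together. Stretches of titles as a block, an alternative chosen after seeing the data, gave 7 members and 5818 genes called after transplantation. Lox rests on 10 to 2058 reads per library and Col1a1 on 74 to 19936.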
